A study of Mus musculus with 6 samples.

Results

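The 10 genes examined here encode the synaptonemal complex and its chromosome axis: Sycp1, Sycp2, Sycp3, Syce1, Syce2, Syce3, Tex12, Six6os1, Hormad1 and Trip13. They were chosen by name as known parts of this structure, with no threshold on their values, although earlier results of these data were known at the time. All 10 were found among the 53700 gene identifiers of the deposited count tables. Six6os1 is listed under the older symbol 4930447C04Rik. The libraries came from total RNA of whole testes of mice at postnatal day 45 with the strain label Msl3em1Forni/C57BL/6J. Of the 6 mice, 3 had the genotype MSL3 WT (WT below) and 3 the genotype MSL3 cKO, a conditional knockout of a floxed Msl3 allele (cKO below), each mouse giving 1 library of single-end 75 bp reads. Msl3 encodes a subunit of the male-specific lethal complex, which carries the histone acetyltransferase Kat8, and the series asks whether its loss affects spermatogenesis. The recombinase line, the cells in which it acts and the deleted part of Msl3 are not given in the sources used here.

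The synaptonemal complex is the protein zipper that holds homologous chromosomes together along their length during meiotic prophase. SYCP2 and SYCP3 build the lateral elements on the chromosome axes, SYCP1 forms the transverse filaments that bridge them, and SYCE1, SYCE2, SYCE3, TEX12 and SIX6OS1 make up the central element in the middle of the zipper. HORMAD1 marks axes that have not yet synapsed, and the ATPase TRIP13 removes it once the complex has formed. In the testis these proteins act in spermatocytes, and mice that lack one of the structural parts arrest in meiosis.

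Most of these genes share a short promoter sequence, which is shown first. RefSeq promoters (build GRCm38.p6, 250 bases before to 50 bases after an annotated start) were listed for all 10 genes, 13 promoters in all because Syce2, Syce3 and Hormad1 have a second start. The palindrome CACGTG, the canonical E-box bound by helix-loop-helix factors such as MAX and USF, stood in at least 1 promoter of 6 of the 10 genes. Over all genes with a listed promoter, 2187 of 27025 (8.09%) held it, and of single promoters 7.15% of 32851 did. Every match before the start site is printed below with its neighbouring bases in the direction of the gene, the E-box in capitals, to show that the surroundings differ from gene to gene.
Sycp1 (chr3:102936177-102936206, minus strand): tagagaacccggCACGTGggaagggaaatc
Sycp3 (chr10:88459511-88459540, plus strand): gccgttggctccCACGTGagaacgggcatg
Sycp3 (chr10:88459532-88459561, plus strand): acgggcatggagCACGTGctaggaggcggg
Syce2 (chr8:84872158-84872187, plus strand): cgtttcattcagCACGTGctcggggcgggg
Tex12 (chr9:50561344-50561373, minus strand): ccgcgagactgtCACGTGgctcgcgcgctg
Six6os1 (chr12:72917919-72917948, minus strand): actgtggcctacCACGTGgtgcgcggggtc
Hormad1 (chr3:95559608-95559637, plus strand): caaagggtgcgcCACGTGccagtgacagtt
Hormad1 (chr3:95559645-95559674, plus strand): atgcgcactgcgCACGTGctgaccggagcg

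The first base of the E-box lay 94 bases before the start in Sycp1, 64 and 43 in Sycp3, 88 before the second start in Syce2, 93 in Tex12, 171 in Six6os1, and 57 and 20 before 1 of the 2 listed starts of Hormad1. In the GENCODE M21 annotation these windows lie upstream of the gene, except that the Syce2 window overlaps an exon of a longer Syce2 transcript and the Six6os1 window lies in an intron of one. CACGTG contains a CpG, and promoters rich in CpG hold it more often. Of genes that have a promoter with at least 10 CpG, 1458 of 12388 (11.8%) had the motif in it. Of genes that have a promoter with fewer, 4.645% did. The 6 genes with the motif had from 15 to 33 CpG in the promoter that holds it. Of the neighbouring lists of meiotic genes described further on, 2 of 12 axis and cohesin genes, 1 of 7 axis remodelling genes, 1 of 9 crossover genes and 0 of 4 telomere attachment genes with a listed promoter had CACGTG. The other 2 motifs were searched on both strands. TCCCGC, the core of sites for E2F factors, was in promoters of 5 of the 10 genes against 22.05% of all genes, and AACNGTT, a site type of MYB factors, in 1 of 10 against 5.01%. These matches describe the sequence only, and binding was not measured.

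The counts rested on 56991431 to 73766444 reads assigned to genes per library. Reads on the strand opposite to the gene made up 96.0% to 96.2% of the 2 stranded columns, and this column was used. Levels are in CPM (counts scaled to library size by trimmed means of M values). The targeted gene was checked first: Msl3 had 16.0, 18.9 and 15.9 CPM in the libraries labelled WT 1, 2 and 3 and 16.0, 14.8 and 15.8 CPM in those labelled cKO 1, 2 and 3. Its log2 fold change, cKO minus WT, was -0.12 (SE 0.0879, edgeR quasi-likelihood adjusted p 0.551), so the count did not mark the genotype and groups are named by their labels. Across all 21902 genes tested, 4 (0.0183%) passed an adjusted p of 0.05.

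None of the 10 genes passed the test in either direction. At an unadjusted p under 0.05 there were also 0 of 10, where 13.9% of all tested genes fell below that value, and DESeq2, which called 1.4% of the genes it gave an adjusted p, called 0 of 10 as well. In 0 of 10 genes were the 3 cKO libraries all above or all below the 3 WT libraries, where 18.9% of all tested genes were so separated. The median log2 fold change of the 10 genes was -0.08, with 4 higher and 6 lower in cKO, and that of all tested genes was 0.0031. All 10 intervals of the fold change at 95% held 1, and they ran from 0.773 at the lowest, for Syce3, to 1.23 at the highest, for Sycp1. Differences inside a gene's own interval could not be told from the spread between mice as edgeR estimates it, partly from other genes. RNA of a whole testis cannot tell fewer spermatocytes from less RNA per spermatocyte.

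**Figure D1:**
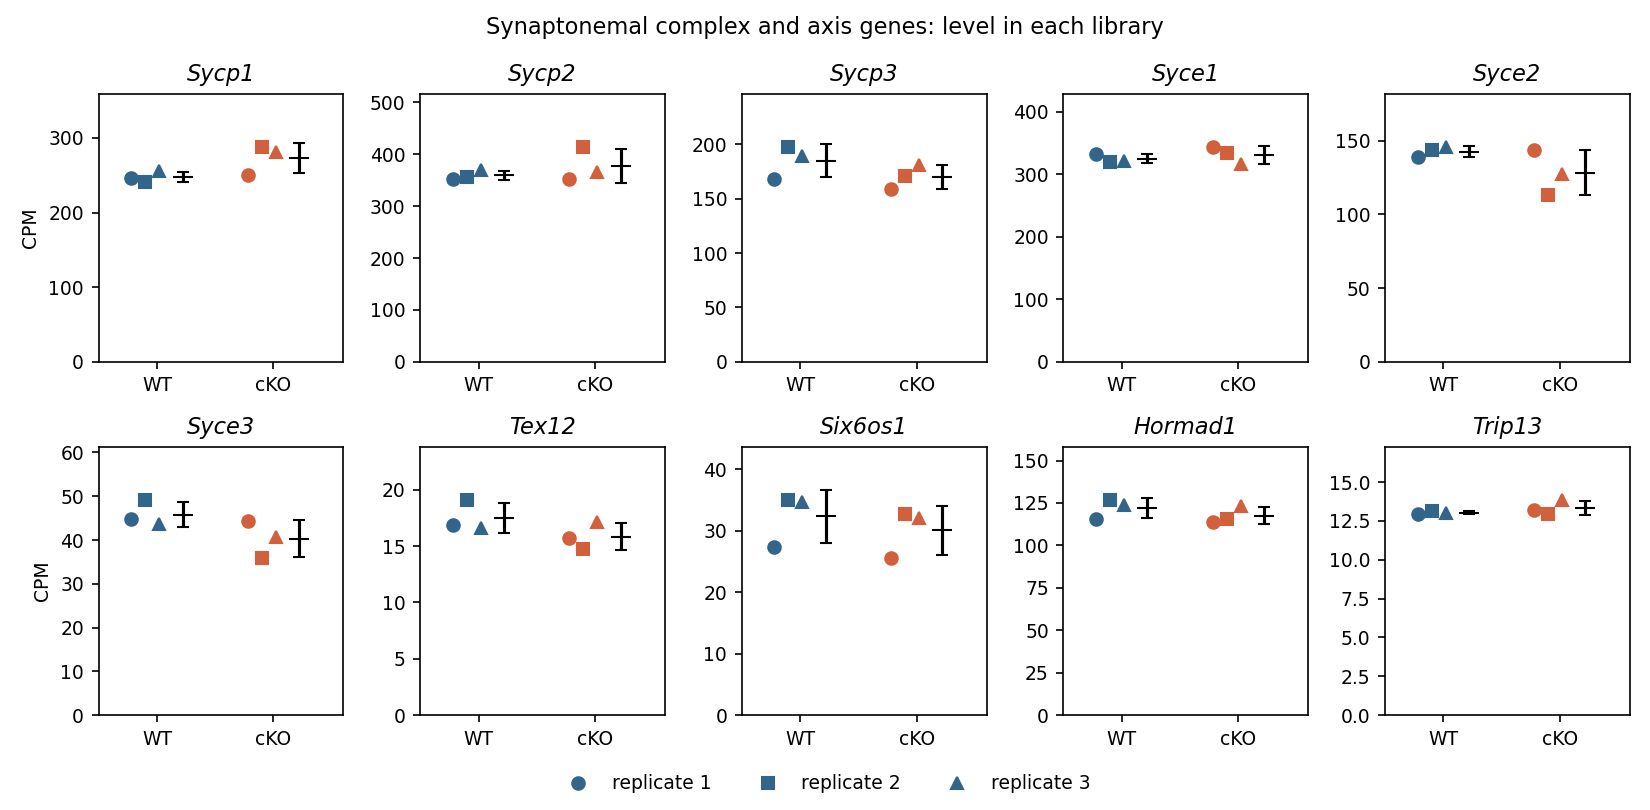
Level in CPM (vertical axes, each starting at 0) of the 10 genes in the 3 WT (blue) and 3 cKO (orange) libraries, marked by replicate number, with the mean and SD of each group in black. The points of both groups overlap in every panel, with cKO 2 highest for Sycp1 and Sycp2 and lowest for Syce2, Syce3 and Tex12.

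Sycp3 and Sycp2, which encode the lateral element proteins that coat the axes, had differences of opposite sign, both within the spread between mice. Sycp3 (ENSMUSG00000020059, GRCm38 chr10:88459569-88473236, plus strand) had 168, 197 and 189 CPM in WT 1, 2 and 3 and 159, 170.4 and 181 CPM in cKO 1, 2 and 3. Replicate 1 was the lowest library of each group, and only cKO 1 lay below the WT range. The groups differed by -0.12 on the log2 scale (SE 0.0784, edgeR adjusted p 0.515), by -0.18 without WT 1 and by -0.07 without WT 2 or cKO 1. Sycp2 (ENSMUSG00000060445, chr2:178345293-178407685, minus strand) had 352, 356 and 369 CPM in WT and 352, 413 and 366 CPM in cKO. cKO 2 stood above the WT range and the other 2 cKO libraries lay within or at its lower edge. The difference of 0.07 on the log2 scale (SE 0.0732, edgeR adjusted p 0.706) became 0.00037 without cKO 2 and 0.12 without cKO 1.

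Sycp1, which encodes the transverse filament protein and spans 34 merged exons (ENSMUSG00000027855, chr3:102818499-102936100, minus strand), had the largest positive difference of the 10 genes. It had 246, 241 and 255 CPM in the WT libraries and 249.8, 287 and 280.4 CPM in the cKO libraries. cKO 2 and cKO 3 were above all WT libraries, and cKO 1 lay inside their range. The means were 248 ± 7.12 and 273 ± 20.04 CPM (SD, n = 3 each), which is 0.14 on the log2 scale (SE 0.0712, edgeR adjusted p 0.401).

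The central element genes were led by Syce1, whose protein pairs with SIX6OS1. Syce1 (ENSMUSG00000025480, chr7:140777229-140787852, minus strand) had 333, 319.7 and 322 CPM in WT and 344, 334 and 316 CPM in cKO, with the cKO values on both sides of the WT range. The difference was 0.03 on the log2 scale (SE 0.0640, edgeR adjusted p 0.883), and ran from 0.00054 without cKO 1 to 0.06 without cKO 3. Six6os1 (ENSMUSG00000021098, chr12:72881109-72940774, minus strand), named for its place opposite the homeobox gene Six6, had 27.4, 34.9 and 34.6 CPM in WT and 25.5, 32.7 and 32.1 CPM in cKO. Here too replicate 1 was the lowest library of each group, and the difference between libraries of 1 group exceeded that between the groups. On the log2 scale cKO minus WT came to -0.11 (SE 0.113, edgeR adjusted p 0.718), to 0.0021 without cKO 1 and to -0.21 without WT 1.

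Syce2 and Tex12, whose proteins assemble together into the fibres of the central element, and Syce3, which links SYCP1 to that element, had lower means in cKO without passing the test. Syce2 (ENSMUSG00000003824, chr8:84872111-84888221, plus strand) had 139, 144 and 146 CPM in WT and 144, 113 and 128 CPM in cKO. cKO 1 lay among the WT libraries and the other 2 cKO libraries below them. The difference of -0.15 on the log2 scale (SE 0.0840, edgeR adjusted p 0.431) was -0.07 without cKO 2 and -0.25 without cKO 1. Syce3 (ENSMUSG00000078938, chr15:89390174-89410503, minus strand) had 44.7, 49.0 and 43.7 CPM in WT and 44.3, 35.9 and 40.7 CPM in cKO, with cKO 1 again among the WT libraries and the other 2 below them. At -0.18 (SE 0.0856) its log2 value was the lowest of the 10, and edgeR gave an unadjusted p of 0.0527 and an adjusted p of 0.366. Without cKO 2 the value was -0.11, and without cKO 1 it was -0.26 (edgeR adjusted p 0.127). The unadjusted edgeR p of Syce3 was 0.0357 with scaling by totals only and 0.0214 with unfiltered counts. With a minimum of 10 reads in each library it was 0.0433. The unadjusted edgeR p of Syce2 was 0.0403 with unfiltered counts. Tex12 (ENSMUSG00000032065, chr9:50556819-50561325, minus strand) had 16.9, 19.0 and 16.6 CPM in WT and 15.7, 14.7 and 17.1 CPM in cKO. The highest library was WT 2 and cKO 3 lay within the WT range. Tex12 differed by -0.14 on the log2 scale (SE 0.0877, edgeR adjusted p 0.480). The value was -0.08 without WT 2, -0.09 without cKO 2 and -0.20 without cKO 3.

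Hormad1 and Trip13, the axis mark and the enzyme that takes it away, had means within 5% of each other in the 2 groups. Hormad1 (ENSMUSG00000028109, chr3:95559677-95587671, plus strand) had 115, 126 and 124 CPM in WT and 114, 115 and 123 CPM in cKO. cKO 3 lay within the WT range and the other 2 cKO libraries at or just below its lower edge, a difference of -0.06 on the log2 scale (SE 0.0675, edgeR adjusted p 0.755). With 1 library left out it ran from -0.09 (without WT 1 or cKO 3) to -0.03 (without WT 2 or cKO 1). Trip13 (ENSMUSG00000021569, chr13:73911347-73937784, minus strand) had 12.9, 13.1 and 13.0 CPM in WT and 13.2, 13.0 and 13.8 CPM in cKO. cKO 1 and 3 were above the WT range and cKO 2 inside it. The highest Trip13 library was 1.07 times the lowest, against up to 1.37 times for Six6os1. The groups differed by 0.03 (SE 0.0760, edgeR adjusted p 0.885) on the log2 scale, and by 0.0060 without cKO 3 or 0.05 without cKO 2.

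**Figure D2:**
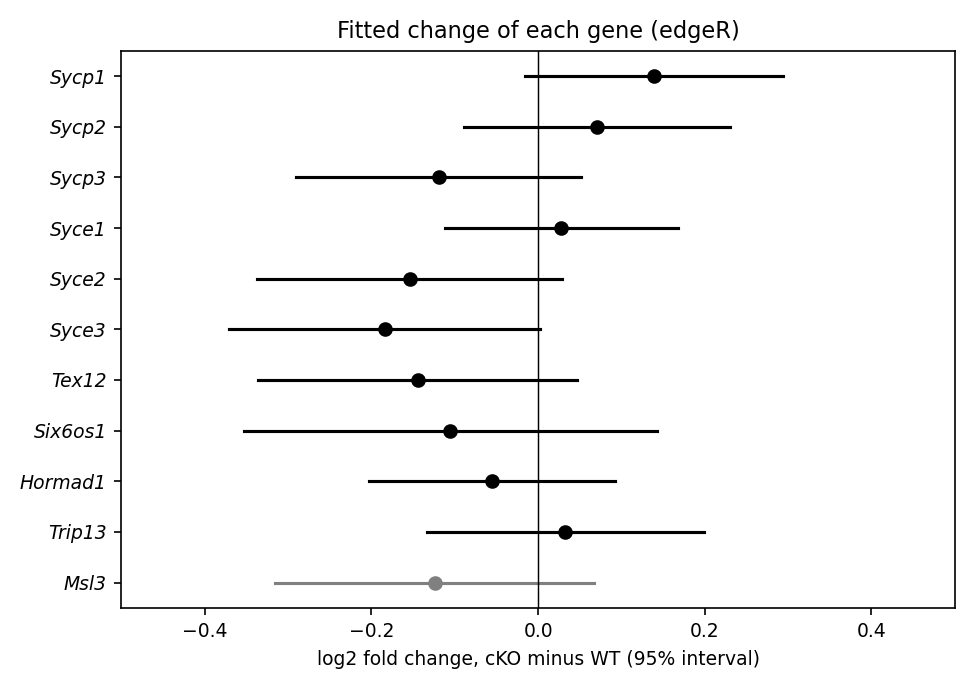
Fitted log2 fold change of each of the 10 genes and of Msl3 (grey), cKO minus WT, with its 95% interval as a horizontal line. Every interval crosses 0, and the outermost points are Sycp1 at 0.14 and Syce3 at -0.18.

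To compare the genes with each other, CPM were divided by the length of the merged exons in kilobases (RPKM scale). Syce1 was the most abundant at a mean of 225 RPKM over the 6 libraries, above 98.8% of all tested genes, and Sycp3 followed at 140.4 RPKM. Syce3, Sycp1, Hormad1, Syce2 and Sycp2 formed a close group at 77.9, 73.1, 69.2, 68.8 and 61.7 RPKM, in which each gene overlapped its neighbour in the order across the libraries. Tex12 stood at 16.4, Six6os1 at 5.21 and Trip13 at 3.79 RPKM, each range separate from the next. Trip13, an enzyme rather than a structural part, was still above 58.0% of all tested genes. The central element therefore held both the highest level of the set and, leaving Trip13 aside, the lowest.

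The order in the middle depended on which transcripts are counted as the length. With the median length of the protein-coding transcripts, a choice added after the values were seen, Syce1 and Sycp3 remained the highest 2 at 377 and 154 RPKM. Tex12, Six6os1 and Trip13 remained the lowest 3 at 17.6, 15.8 and 3.87 RPKM. Sycp2 moved from the seventh to the third place at 116 RPKM, and Six6os1 came close to Tex12, because both Sycp2 and Six6os1 have long merged exons (5967 and 5981 bp) but median transcripts of 3165.5 and 1970 bp.

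**Figure D3:**
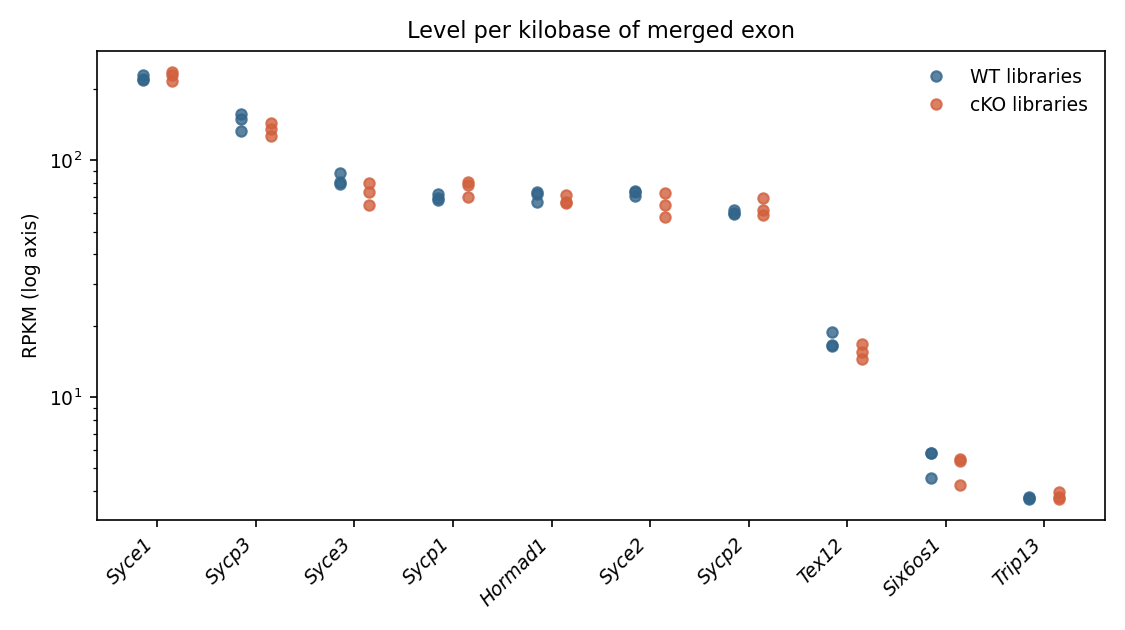
Level per kilobase of merged exon (RPKM, log axis) of the 10 genes in order of their mean, with each WT (blue) and cKO (orange) library as a point. Syce1 and Sycp3 lie above the others, 5 genes share a band between 57.6 and 88.7 RPKM, and Tex12, Six6os1 and Trip13 lie below it.

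Ratios of levels per length were then compared for 5 pairs of partners, a comparison added after the values were seen. Lateral element Sycp2 over Sycp3 was 0.444, 0.382 and 0.414 in WT 1, 2 and 3 and 0.468, 0.514 and 0.428 in cKO 1, 2 and 3 (exact two-sided permutation p = 0.2). Transverse filament Sycp1 over its central element partner Syce3 was 0.858, 0.764 and 0.907 in WT and 0.877, 1.24 and 1.07 in cKO (exact permutation p = 0.2). The fibre-forming pair Syce2 over Tex12 had means of 4.22 ± 0.314 and 4.18 ± 0.472 (SD, n = 3 each, exact permutation p = 0.9), and Syce1 over Six6os1 had 41.8 ± 6.94 and 45.9 ± 8.19 (SD, n = 3 each, exact permutation p = 0.5). Axis substrate over enzyme, Hormad1 over Trip13, was the only pair of the 5 without overlap, at 17.9, 19.4 and 19.1 in WT and 17.3, 17.9 and 17.9 in cKO, where WT 1 at 17.93 and cKO 2 at 17.885 nearly met. Its exact permutation p of 0.1 is the smallest that 3 mice against 3 allow, and adjusted over the 5 ratios it was 0.333.

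The 10 genes did not vary as 1 block across the mice. On log2 CPM, WT 2 was the highest library for 5 of the 10 genes, cKO 1 the lowest for 4 and cKO 2 the lowest for 3. cKO 2 was at the same time the highest for Sycp1 and Sycp2. Syce3, Tex12 and Syce2, with merged exons of 553, 1016 and 1968 bp, deviated from their mean over the 6 libraries by -0.26, -0.18 and -0.25 in cKO 2, and Sycp1 and Sycp2, with 3556 and 5967 bp, by 0.15 and 0.17. Sycp3, Syce1 and Hormad1, with shorter merged exons than Syce2, and Trip13 and Six6os1, with longer ones, stayed between -0.06 and 0.08 there. In 4 of the 10 genes (Six6os1, Sycp3, Sycp2 and Hormad1) replicate 1 was the lowest library of each group.

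Exon length also went with the library over all tested genes. With these split by merged exon length into 4 groups of like size, the group with the shortest merged exons (up to 1644 bp) had a median log2 fold change of -0.12, and the group with the longest (from 5661 bp) one of 0.10. The median deviation in cKO 2 was -0.07 for the shortest and 0.09 for the longest group, and in WT 2 it was 0.09 and -0.06. Sycp3, Syce1, Syce3 and Tex12 belong to the shortest group and Sycp2 and Six6os1 to the longest. After a loess correction of each library for merged exon length, added after the values were seen, the median log2 fold change of the 10 genes was -0.022 in place of -0.08. Syce3 then had -0.08, Tex12 -0.06, Sycp3 -0.04 and Hormad1 -0.0022, while Sycp1 stayed at 0.14. Syce1 and Six6os1 moved away from 0, to 0.09 and -0.16. With the correction 0 of the 10 genes and 0.0275% of all tested genes passed, the smallest edgeR adjusted p of the 10 being 0.542. How far length accounts for the differences between genotypes was not tested further.

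**Figure D4:**
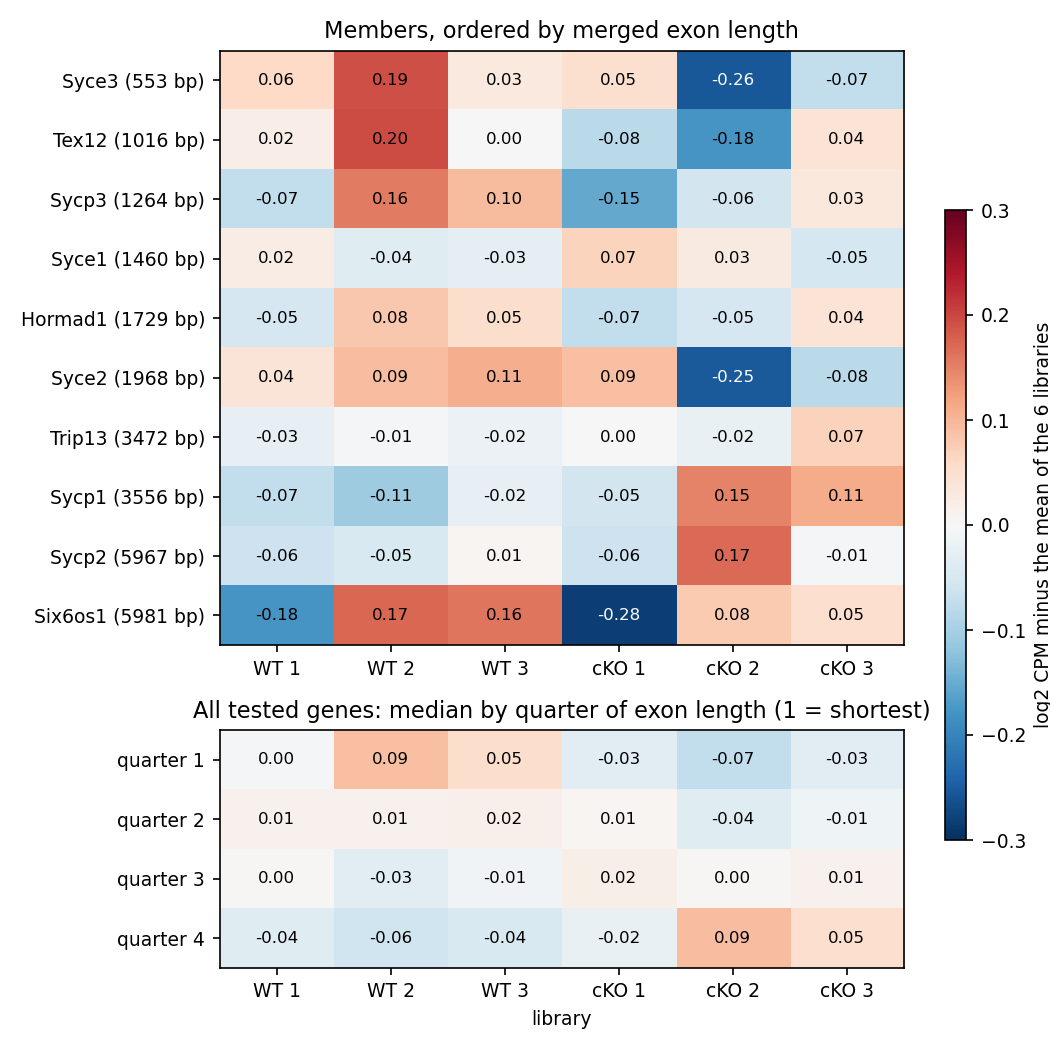
Difference of log2 CPM from the mean of the 6 libraries (colour and printed values), for the 10 genes ordered by merged exon length above and, below, the median over all tested genes in 4 groups of that length. In cKO 2 Syce3, Tex12 and Syce2 are negative and Sycp1 and Sycp2 positive, and the shortest and longest groups of all genes stand at -0.07 and 0.09.

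Genes with and without CACGTG in a listed promoter had differences of both signs. Of the 6 genes with it, Sycp1 had 0.14 and Sycp3, Syce2, Tex12, Six6os1 and Hormad1 had -0.12, -0.15, -0.14, -0.11 and -0.06 on the log2 scale. Of the 4 without it, Sycp2, Syce1 and Trip13 had 0.07, 0.03 and 0.03, and Syce3 had -0.18. These are descriptions of 10 genes, and no test was made of them.

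Some of the counts carry limits of sequence and strand. Of the 1264 bp of merged Sycp3 exons, 660 bp (52.2%) overlap exons of Chpt1, a phospholipid synthesis gene on the opposite strand. Counted without strand, Sycp3 kept only 4220 to 5559 reads per library against 9533 to 12799 with strand, and its log2 fold change was -0.12 either way. Six6os1 overlaps Six6 in 192 bp (3.21%) on the opposite strand. Of the 75-base windows of Hormad1 transcripts, 12.6% also occur in the processed pseudogene Gm15529, and of those of Sycp1 2.62% occur in transcripts of other genes, mostly the pseudogene Sycp1-ps1, so their reads there may be lost or exchanged. Sycp2, Syce1, Syce2, Syce3, Tex12 and Trip13 shared no such window with another annotated transcript.

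Related meiotic genes were read from 4 lists, in none of which a gene passed the adjusted p of 0.05. Of the axis and cohesin list, 9 of 12 genes were higher and the median log2 fold change was 0.11, with 3 genes (Smc1b, Smc3 and Mei1, the last named after its values were seen) above the WT range in all cKO libraries, against 10% of all tested genes. Without WT 2 the median was 0.05, with 8 of 12 higher. The 12 genes summed to 1040 to 1091 CPM in WT and 1114 to 1249 CPM in cKO, without overlap. Stag3 was the largest part of these sums and overlapped, at 573, 538 and 549 CPM in WT and 576, 596 and 549 CPM in cKO. Smc1b was the next largest and did not overlap. The sums thus rest mainly on these genes and do not show a rise across the list. By abundance per length the first 4 of the list were Stag3, Smc1b, Rec8 and Smc3, cohesin subunits of the axis, at 0.05, 0.30, 0.12 and 0.27. Smc1b had 229, 222 and 214 CPM in WT and 238, 312 and 268 CPM in cKO (edgeR adjusted p 0.288), and Smc3 had 86.5, 83.9 and 84.0 CPM against 89.1, 116 and 101 CPM (edgeR adjusted p 0.298). Both passed without cKO 1, where 2.82% of all tested genes did, with edgeR adjusted p of 0.0223 and 0.0282, and Smc1b did so with unfiltered counts too (0.0188), where 2.07% did. Under both settings 0 of the 10 synaptonemal complex genes passed. The difference of these cohesins from the 10 genes was not tested.

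The axis remodelling list (partners of TRIP13 and factors that modify or dissolve the complex) had a median log2 fold change of -0.03, with 4 of 9 genes higher, and 0.03 without WT 1. Its most abundant genes were the chaperone gene Hspa2 at 0.08, the ubiquitin ligase subunit Skp1a at -0.17, the testis proteasome subunit Psma8 at -0.27 and Mad2l2 at 0.01. Of its 9 genes, 1 was above and 2 were below the WT range in all cKO libraries, against 10% and 8.85% of all tested genes. These were Plk1 at 0.20 (edgeR adjusted p 0.306), Mad2l1 at -0.12 (edgeR adjusted p 0.485) and Skp1a (edgeR adjusted p 0.342), the first pair named after their values were seen. Psma8 overlapped (edgeR adjusted p 0.305) but passed with unfiltered counts (0.0270). In the crossover list, genes that make and mature recombination intermediates, 9 of 14 were higher with a median of 0.03, but 6 of 14 with -0.01 without WT 2. Brme1, Hsf2bp, Spo11 and Meiob had -0.06, -0.07, -0.07 and 0.03. In the telomere attachment list 3 of 6 were higher with a median of 0.01, which ran from -0.03 (without cKO 1) to 0.04 (without cKO 3). Spdya, Kash5, Sun1 and Terb1 had -0.16, 0.05, 0.04 and 0.03.

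Markers of the testis were present as the tissue label says, and no marker gene passed the adjusted p in edgeR as fitted here. DESeq2, which called 1.4% of the genes it gave an adjusted p, called 4 of them, all lower in cKO. These were Tnp1 and Hmgb4 of elongating spermatids at -0.40 and -0.25, Hsd17b3 of Leydig cells at -0.38 and Cst8 at -0.35. In edgeR 11 were called with unfiltered counts (2.07% of all tested genes), 7 without cKO 1 (2.82%) and 2 without WT 1 (0.518%). Of these, Star and Myh11 (unfiltered) and Myh11, Mrc1 and Vwf (without cKO 1) were higher in cKO, and the others lower. Under each of these settings 0 of the 10 synaptonemal complex genes were called. The summed level of 12 pachytene and diplotene spermatocyte genes, from the stages in which the complex is complete (pachytene) and then taken apart (diplotene), was 10676 to 10802 CPM in WT and 10168 to 10931 CPM in cKO. Ldhc alone gave 3836, 3930 and 3810 CPM of it in WT and 3847, 3419 and 3607 CPM in cKO. Whether these transcripts came only from those stages was not tested. The 10 synaptonemal complex genes summed to 1456 to 1513 CPM in WT and 1460.5 to 1531 CPM in cKO. Medians of the log2 fold changes were 0.09 for spermatogonia, -0.0026 for pachytene and diplotene spermatocytes, -0.10 for round and -0.12 for elongating spermatids. They were 0.11 for Sertoli, -0.14 for Leydig, -0.08 for peritubular myoid and 0.21 for endothelial cells, -0.24 for macrophages and -0.35 for the 3 of 10 epididymis genes with enough reads. Neither these medians nor those of the related lists were corrected for merged exon length. Over all tested genes the shortest group had a median of -0.12 and the longest 0.10. The part of length in the list medians was not tested. With 1 library left out the epididymis median went to -0.12 and the macrophage median to -0.16 (both without WT 2), and those of Leydig cells, elongating and round spermatids to -0.02, -0.03 and -0.06 (without cKO 2). The Sertoli median went to 0.04 (without cKO 1) or 0.19 (without cKO 2), the spermatogonial one to 0.05 (without WT 2) or 0.14 (without WT 1), and the pachytene and diplotene one from -0.03 (without cKO 1) to 0.01 (without cKO 3). The endothelial median ran from 0.16 (without cKO 3) to 0.24 (without cKO 1). The peritubular myoid median ran from -0.12 (without WT 2) to -0.06 (without WT 1). Of these lists, 2 did not overlap in their sums. The 8 endothelial genes summed to 49.1 to 51.0 CPM in WT and 51.9 to 62.3 CPM in cKO. The epididymis genes summed to 226 to 266 and 178 to 207 CPM, 97.6% of the reads from Cst8, a cystatin gene also known from testis. Without Cst8 the sums were 5.16 to 6.36 and 4.22 to 6.04 CPM, with Lcn8 and Spag11b at 0 in all libraries. The part of these differences in the values of the 10 genes was not tested.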

How the data were processed

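The deposited values are raw counts of reads per gene, 1 table per library, not normalised by the authors; STAR, HTSeq, DESeq2 and the build mm10 are named without roles or versions per the submitters' processing notes, and the annotation release is not given in the sources used here. The tables hold an unstranded and 2 stranded columns; rows for reads outside single genes (14.8% to 16.7% of reads) were left out. Symbols, exon lengths and positions came from GENCODE M21 (GRCm38, the same assembly as mm10), which matched 52147 of 53700 identifiers; promoters came from RefSeq.

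Tests used edgeR 4.0.16 in R 4.3.3: genes were kept by filterByExpr (minimum count 10), libraries were scaled by TMM, and the 3 cKO were compared with the 3 WT libraries by the quasi-likelihood test, with no covariate. P-values of the 21902 genes kept were adjusted by Benjamini-Hochberg and called at 0.05. The scripts were checked on simulated data. Standard errors came from the F statistic. DESeq2 1.42.0 was an alternative. Counting depth sets only part of the error. Intervals rest on the spread between 3 mice a group, which edgeR combines with the spread of other genes. The test had a median of 11.9 degrees of freedom. Named genes were Msl3, the 10 genes and the 4 most abundant per length of each related list. The members and lists were chosen with earlier results of these data known, so they are not independent support.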

Additional observations from a re-analysis of the deposited data

How the results depend on the processing

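In 14 alternatives (scaling by RLE or by totals only, unfiltered counts, a minimum of 10 reads in each library, unstranded counts, a replicate block, DESeq2, each of the 6 libraries left out, and the length correction added after the data had been seen) 0 of the 10 genes passed the adjusted p of 0.05. The smallest adjusted p was 0.103, for Syce2 without cKO 1. Unadjusted p-values of edgeR or DESeq2 fell under 0.05 in at least 1 alternative for Syce2, Syce3, Sycp1 and Sycp3. Their smallest values were 0.00567, 0.00841, 0.0116 and 0.0438. Directions held except for Six6os1, at 0.0021 without cKO 1 and down to -0.21 without WT 1. The median log2 fold change of the 10 genes ran from -0.13 (without WT 1) to -0.016 (without cKO 1) with a library left out. It was -0.022 after the length correction. Its size thus changed with the libraries used and with the correction, and the part of length in it was not tested. The number of all genes called was 4 in the reported fit, 757 unfiltered, 2 with unstranded counts and 193 with DESeq2, and 3 to 6 with the other scalings, the stricter minimum and the length correction. It ran from 1 (without WT 3 or cKO 2) to 628 (without cKO 1), with 116 without WT 1, 2 without WT 2 and 7 without cKO 3; the cause was not tested.

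Deviations from the group mean correlated across genes at 0.376, 0.263 and -0.0706 between libraries of equal number 1, 2 and 3. Between libraries of unequal number the values ran from -0.387 to 0.159. Equal numbers were thus not the more alike in every case, and the reported fit used no pairing. With the replicate block 49 genes were called, and the median of the 10 genes was -0.08. Msl3 stayed uncalled, between -0.18 and -0.04. With 3 mice a group, differences of the size seen here could not be separated from the spread between mice.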
